A study of Mus musculus with 35 samples.

Results

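The 10 genes described here encode the cyclins, kinases and kinase inhibitors that govern the G1 phase of the cell cycle: the D-type cyclins Ccnd1, Ccnd2 and Ccnd3, cyclin E1 (Ccne1), the kinases Cdk4 and Cdk6, and the inhibitors Cdkn1b, Cdkn2a, Cdkn2b and Cdkn2c. They are a fixed list of gene names, drawn up with earlier results of these data known, and make up 10 of the 24421 genes that each count table lists, and all 10 passed the filter on low counts in both sets of samples. RNA was sequenced from immortalized mouse embryonic fibroblasts (MEFs) of genotype Nelfb flox/-, which carry a null allele of Nelfb beside an allele that Cre can delete. Nelfb encodes a subunit of NELF (negative elongation factor), a complex of NELFA, NELFB, NELFC or NELFD, and NELFE that holds RNA polymerase II near the start of genes.

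The first set held 20 libraries from stable populations made with a pLenti vector that was empty (EV) or carried NELFB as WT, MT194, MT486 or DMT, the last with both mutations. MT194 loses its binding to NELFA and NELFC in the study's binding assays, and MT486 its binding to NELFE. Each population was taken 7 days after an adenovirus with Cre and GFP (Ad-Cre-GFP, groups named EV-Cre and so on) or with GFP only (Ad-GFP), with 2 replicates in each of the 10 groups. The second set held 15 libraries from lines grown from single cells after Ad-Cre, with 3 clones each of WT, MT194 and MT486 in pLenti and of WT(N48) and Δ-C60, a truncation of the carboxyl terminus, in pBabe. By its labels a clone group is 3 lines, and what sets a line apart cannot be separated from its construct within 1 line. A population library had 17969149 to 29080007 reads on genes, a clone library 18413284 to 27816723.

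As background, growth signals raise the D-type cyclins, which activate CDK4 and CDK6. These kinases start the phosphorylation of the retinoblastoma protein, and cyclin E with CDK2 completes it, so that E2F factors are released and S phase begins. The INK4 proteins bind CDK4 and CDK6 and keep the D-type cyclins off them, whereas p27, the product of Cdkn1b, also restrains the CDK2 complexes. In cultured MEFs the gene Cdkn2a is best known for the arrest that follows prolonged growth or stress.

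Nelfb itself was read first, as a check of the labels. It stood at 7.97 and 5.46 CPM (reads scaled to the size of the library, with TMM factors) in the 2 EV-Cre libraries and at 46.1 and 39.6 CPM in the 2 EV-GFP libraries. The log2 fold change was -2.67 (SE 0.22, adjusted p = 2.53e-05, by the quasi-likelihood test of edgeR, with Benjamini-Hochberg adjusted p-values from all genes tested). With Ad-Cre-GFP, the populations with WT, MT194, MT486 and DMT held 60.5 to 208.3 CPM of Nelfb, which counts endogenous and ectopic transcripts together. The other subunit genes Nelfa, Nelfcd and Nelfe were not called in EV, with log2 fold changes of -0.13, 0.13 and -0.25. Among the clones, 2 libraries did not match what their label leads one to look for: those labelled WT clone 1 and WT clone 3 had 10.3 and 15.5 CPM of Nelfb, against 109.4 CPM in WT clone 2 and 56.3 to 247.4 CPM in the 12 other clones. Values against the WT clones are therefore also given without these 2, from a fit in which WT clone 2 alone is assumed to vary like the other groups. Of the libraries of 1 group, the MT486 clones 1 and 2 were the most alike. Their counts differed by 5.06 times the sampling variance over genes, against 32.4 to 348.5 times in the other 14 pairs of clones, so that they were kept as 2 samples, although they may not be separate lines. Of 10 fibroblast markers, 9 were present at a median of at least 1 CPM in both sets, led by Fn1, while Thy1 was at or near 0. None of 6 epithelial and 4 endothelial markers reached that level, and among 4 immune markers only Cd68 did, at a median of 3.44 CPM in the populations.

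Per kilobase of annotated exon, Cdk4 was the most abundant of the 10 transcripts and Cdk6 the least. In the 10 populations with Ad-GFP the median level was 131.4 CPM per kb for Cdk4, which pairs with the D-type cyclins, and 0.632 for Cdk6, which has the same partners. The INK4 genes Cdkn2c (54.3 CPM per kb) and Cdkn2a (54.2) came next, above Cdkn1b (27.7), Cdkn2b (26.6) and the D-type cyclins Ccnd2 (21.8), Ccnd1 (15.4) and Ccnd3 (7.22), with Ccne1 at 7.18. Neighbours in this order overlapped in their range over libraries in the pairs Cdkn2c and Cdkn2a, Cdkn1b and Cdkn2b, Cdkn2b and Ccnd2, Ccnd2 and Ccnd1, and Ccnd3 and Ccne1. The exon lengths merge all annotated transcripts, so that a gene with long alternative exons can be set lower than by its main transcript. How far this holds for each gene, Cdk6 included, was not examined.

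**Figure D1:**
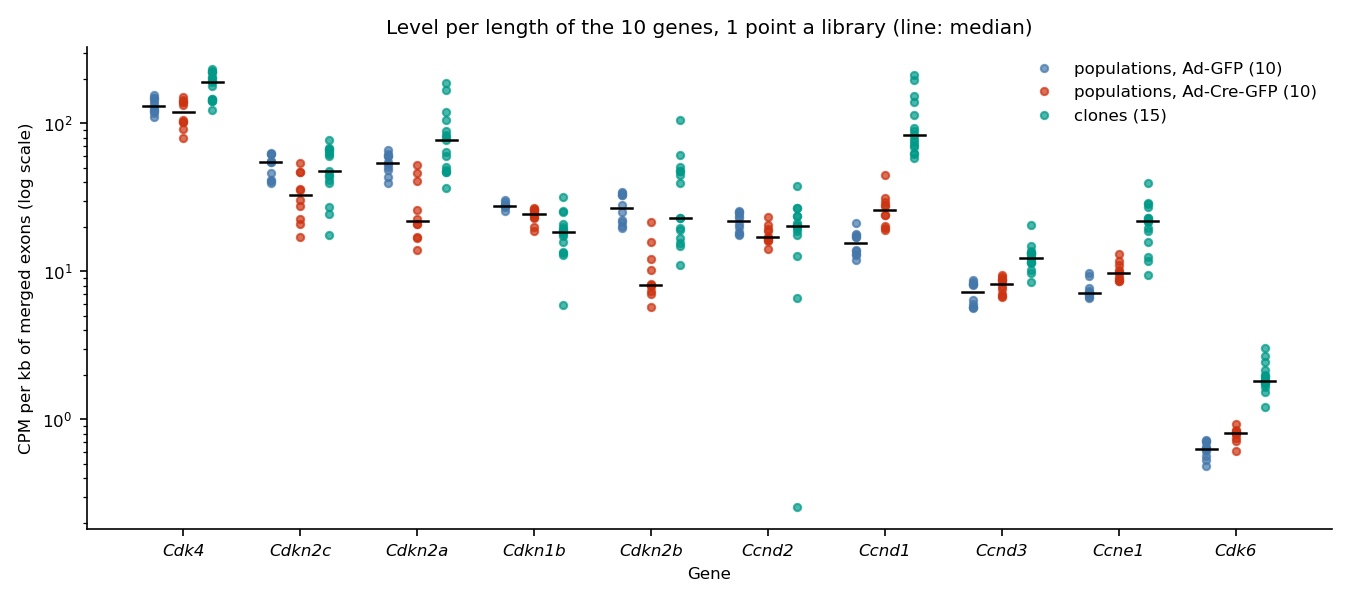
Level of each of the 10 genes in CPM per kilobase of merged exons on a log scale, with a point for each library and a line at the median of the populations with Ad-GFP (10 libraries), the populations with Ad-Cre-GFP (10) and the clones (15). Cdk4 is the highest in all 3 sets, Cdk6 is low in all, and a single clone has Ccnd2 at 0.255 CPM per kb.

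After Cre in EV, the RNA of 3 INK4 genes was lower than with Ad-GFP. Cdkn2a, Cdkn2b and Cdkn2c fell, and in a fit without pairing no member was called higher. Of the 10 members, 3 were called (adjusted p below 0.05 and a log2 fold change beyond 0.5 in size), beside 11.8% of all 13805 genes tested in the same comparison in either direction and 5.94% called lower. The median log2 fold change was -0.37 over the 10 and 0.00036 over all genes. In bulk RNA, fewer cells of a kind and less RNA per cell cannot be told apart. That fit treats the libraries as unpaired, although those numbered 1 exceeded those numbered 2 in 10 of 10 groups for Ccnd1, Ccnd3, Cdk4, Cdkn2a and Cdkn2c. With the replicate number as a block, 5 members were called in EV, Cdkn2a, Cdkn2b, Cdkn2c and Cdk4 lower and Ccnd1 higher, beside 25.4% of all genes.

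**Figure D2:**
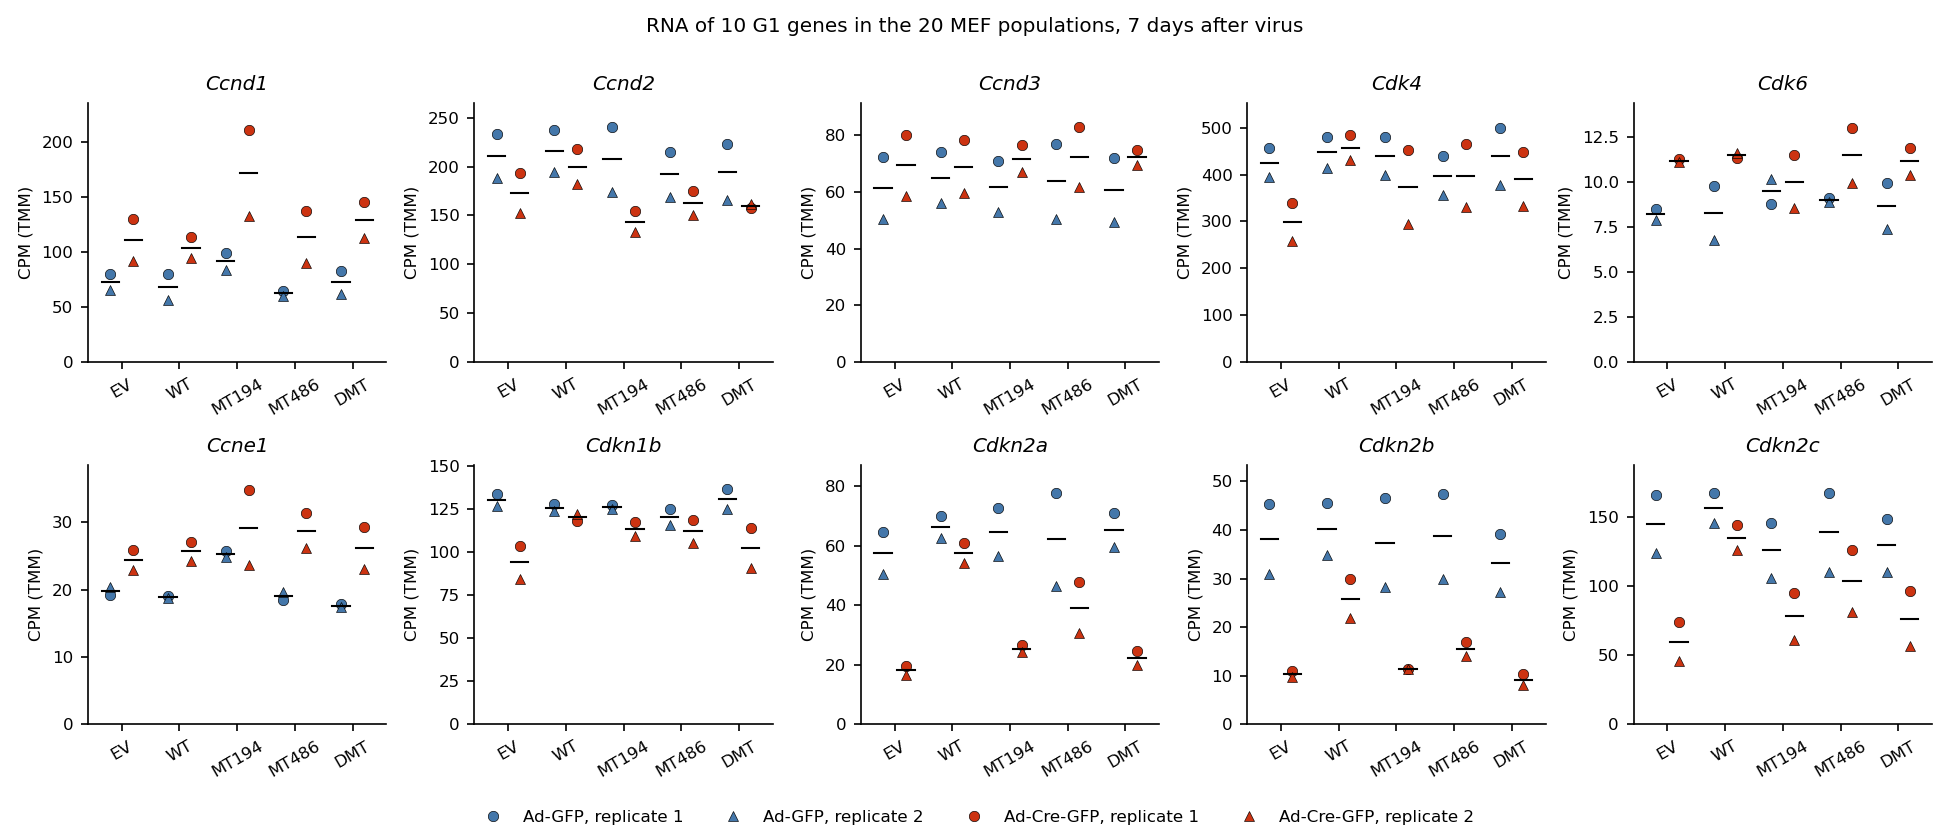
CPM of each gene in the 20 populations, grouped by construct, with Ad-GFP in blue and Ad-Cre-GFP in red, circles for replicate 1, triangles for replicate 2 and a line at the group mean (n = 2). Cdkn2a and Cdkn2b are low with Cre in EV, MT194 and DMT, between 8.01 and 26.4 CPM, and stay nearer the Ad-GFP level in WT, while Ccnd1 is higher with Cre in every construct.

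Cdkn2a and Cdkn2b lie side by side on chromosome 4, both on the minus strand, at chr4:89274471-89294653 and chr4:89306299-89311039 (GENCODE annotation of GRCm38). Cdkn2a has separate starts for p19Arf, which protects p53 from Mdm2, and, further downstream, for the CDK4/6 inhibitor p16Ink4a, and a count per gene adds the 2 transcripts. Cdkn2b encodes p15Ink4b. Cdkn2c, which encodes p18Ink4c, lies on the same chromosome at chr4:109660876-109667189, also on the minus strand. The 250 bases before their RefSeq starts (GRCm38.p6) are shown because these genes are the members that fell together. Of the 2 starts listed for Cdkn2c only the upstream one is shown, as the window before the other, chr4:109665373-109665622, held none of the letters searched. Capitals mark the letters GGGCGG (GC box) and TTTNNCGC (an E2F-type site) on either strand, with no overlap between them.

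Cdkn2a upstream start, chr4:89294620-89294869, minus strand: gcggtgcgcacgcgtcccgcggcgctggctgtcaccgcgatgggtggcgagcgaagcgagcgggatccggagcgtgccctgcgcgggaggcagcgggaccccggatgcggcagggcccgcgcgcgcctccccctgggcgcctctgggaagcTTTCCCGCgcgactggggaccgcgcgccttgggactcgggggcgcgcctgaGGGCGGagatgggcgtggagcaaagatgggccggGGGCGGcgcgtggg
Cdkn2a downstream start, chr4:89282193-89282442, minus strand: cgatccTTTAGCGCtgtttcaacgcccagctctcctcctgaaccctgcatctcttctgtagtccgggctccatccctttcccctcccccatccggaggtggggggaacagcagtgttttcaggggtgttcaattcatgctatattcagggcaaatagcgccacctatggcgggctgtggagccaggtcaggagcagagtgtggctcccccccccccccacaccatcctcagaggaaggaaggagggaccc
Cdkn2b, chr4:89311033-89311282, minus strand: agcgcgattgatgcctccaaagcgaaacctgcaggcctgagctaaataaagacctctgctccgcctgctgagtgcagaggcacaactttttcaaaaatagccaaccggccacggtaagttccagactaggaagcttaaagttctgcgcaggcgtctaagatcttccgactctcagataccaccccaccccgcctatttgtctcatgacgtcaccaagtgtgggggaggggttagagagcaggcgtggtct
Cdkn2c upstream start, chr4:109666757-109667006, minus strand: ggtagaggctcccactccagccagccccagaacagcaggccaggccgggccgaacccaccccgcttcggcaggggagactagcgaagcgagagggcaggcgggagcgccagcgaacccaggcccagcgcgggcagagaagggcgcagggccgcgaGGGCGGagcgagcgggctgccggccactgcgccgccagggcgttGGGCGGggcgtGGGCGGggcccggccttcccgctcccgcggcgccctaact

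GGGCGG occurred 2 times before the upstream start of Cdkn2a and 3 times before that of Cdkn2c, a match that 32.7% of all 32817 RefSeq windows of this length hold. TTTNNCGC occurred once before each start of Cdkn2a, and 4.28% of the windows hold it. In the window of Cdkn2b neither was found, nor were TGANTCA (AP-1), CCAAT or CACGTG (E-box), which 6.75%, 33.8% and 6.02% of the windows hold. None of these runs of letters was thus found in all 3 genes that fell, and of the other members Cdk6 held TTTNNCGC and Cdk4, Cdkn1b, Ccne1 and Ccnd3 held GGGCGG. A match is a run of letters and says nothing of what binds there.

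Cdkn2a measured 19.7 and 16.3 CPM in EV-Cre and 64.5 and 50.5 CPM in EV-GFP, replicate 1 first. Within each replicate, Cre left 0.305 and 0.323 of the Ad-GFP level, and the groups did not overlap. The log2 fold change was -1.67 (SE 0.26, adjusted p = 0.00134, edgeR) and the gene stayed called when any 1 of the 4 EV libraries was omitted. Cdkn2b measured 10.99 and 9.79 CPM in EV-Cre and 45.3 and 31.0 CPM in EV-GFP, again without overlap. Its log2 fold change of -1.88 (SE 0.31, adjusted p = 0.00189) was the most negative of the 10 and also stayed called whichever library was omitted. Cdkn2c measured 73.7 and 45.5 CPM in EV-Cre and 165.7 and 123.8 CPM in EV-GFP. It fell by 1.28 on the log2 scale (SE 0.35, adjusted p = 0.0304). Within each replicate, Cre left 0.4448 and 0.3675 of the Ad-GFP level of Cdkn2c. The call was lost without EV-Cre replicate 2, without either EV-GFP replicate, and in a fit of the 4 EV libraries alone (adjusted p = 0.0981). The fits with a library omitted were unpaired, so that each also unbalanced the replicate numbers.

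In the population with WT NELFB most of the RNA of Cdkn2a, Cdkn2b and Cdkn2c remained after Cre, with both replicates below their Ad-GFP level for each gene. In WT-Cre Cdkn2a stood at 60.7 and 54.3 CPM, which is 0.867 and 0.869 of its level in WT-GFP (70.0 and 62.5 CPM). Cdkn2c stood at 144.4 and 125.8 CPM, 0.863 and 0.862 of WT-GFP. Neither was called, with log2 fold changes of -0.20 (SE 0.25) and -0.21 (SE 0.35). Cdkn2b was the exception in size, at 29.9 and 21.8 CPM in WT-Cre and 45.6 and 34.9 CPM in WT-GFP, or 0.657 and 0.626 of that level. Its log2 fold change of -0.64 (SE 0.30) had an adjusted p of 0.822 in edgeR and 0.0102 with the block. Over the 10 members, WT had 0 called between Ad-Cre-GFP and Ad-GFP in edgeR, beside 0.0217% of all genes. At an unadjusted p below 0.05 were 2 members, beside 859 of the 13805 genes. DESeq2 called 0, beside 0.309%. With the block 2 were called, Cdkn2b and Ccnd1, beside 3.09% of all genes.

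The mutants were each compared with their own Ad-GFP group, and not with one another. MT194-Cre held 26.4 and 24.3 CPM of Cdkn2a against 72.5 and 56.6 CPM in MT194-GFP, a log2 fold change of -1.35 (SE 0.26, adjusted p = 0.0106, edgeR). DMT-Cre held 24.5 and 19.97 CPM against 70.8 and 59.4 CPM in DMT-GFP, a log2 fold change of -1.55 (SE 0.26, adjusted p = 0.00242). Cdkn2a therefore fell in both constructs that carry the MT194 mutation. MT486-Cre held 47.8 and 30.6 CPM against 77.6 and 46.5 CPM in MT486-GFP. The groups overlapped, the replicates kept 0.616 and 0.657 of the Ad-GFP level, and the log2 fold change of -0.66 (SE 0.26) had an adjusted p of 0.233 without and 0.00107 with the block.

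Cdkn2b fell in all 3 mutants. It measured 11.3 CPM in both MT194-Cre libraries against 46.6 and 28.2 CPM in MT194-GFP, 10.2 and 8.01 CPM in DMT-Cre against 39.2 and 27.1 CPM in DMT-GFP, and 16.9 and 14.1 CPM in MT486-Cre against 47.5 and 29.96 CPM in MT486-GFP. In none of the 3 did the groups overlap, and MT486-Cre was the highest of the 3 with Cre. The log2 fold changes were -1.73 (SE 0.31, adjusted p = 0.00718) in MT194, -1.86 (SE 0.31, adjusted p = 0.00236) in DMT and -1.32 (SE 0.31, adjusted p = 0.0415) in MT486. In DMT both Cdkn2a and Cdkn2b stayed called when any 1 of their 4 libraries was omitted. In MT194 both were lost when either Cre library or replicate 1 of Ad-GFP was left out (adjusted p of at most 0.0974 for Cdkn2a and 0.0829 for Cdkn2b), and in MT486 the call of Cdkn2b was lost likewise (adjusted p of at most 0.272).

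Cdkn2c was not called in a mutant without the block. Its levels with Cre were 95.2 and 60.9 CPM in MT194, 96.0 and 56.4 CPM in DMT and 126.2 and 81.5 CPM in MT486, against 105.7 to 167.7 CPM in the same constructs with Ad-GFP. The log2 fold changes were -0.69 (SE 0.35, adjusted p = 0.363), -0.76 (SE 0.35, adjusted p = 0.196) and -0.42 (SE 0.35, adjusted p = 0.699). With the block the first 2 passed (adjusted p = 0.000374 and 6.23e-05) and the third met the p but not the size required. In count, 2 of the 10 members were called in MT194, 1 in MT486 and 2 in DMT, all lower, beside 4.22%, 2.42% and 9.92% of all genes in either direction and 2.33%, 1.28% and 5.34% called lower. With the block these counts were 5, 4 and 5, beside 14.5%, 12.1% and 23.1%.

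**Figure D3:**
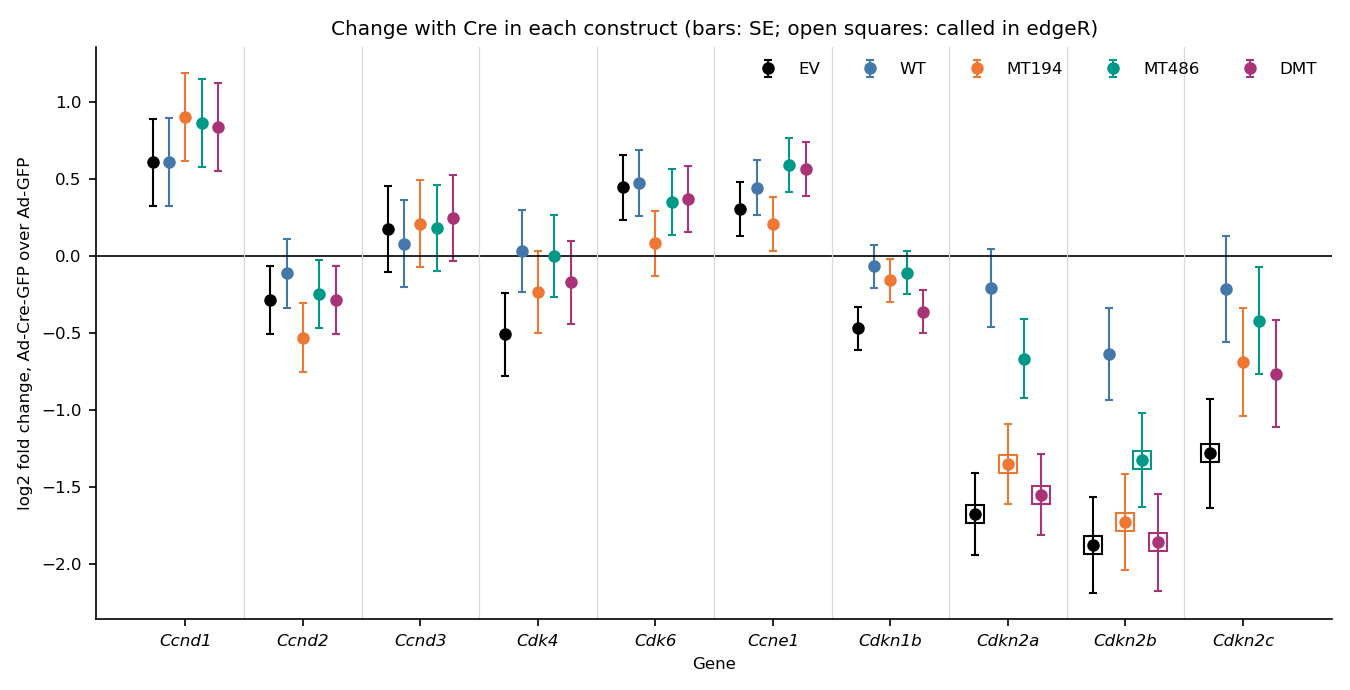
Log2 fold change of each gene between Ad-Cre-GFP and Ad-GFP in the 5 constructs, with the standard error of the edgeR fit as bars and open squares around the calls. The 3 INK4 genes at the right are the lowest, with EV at -1.67, -1.88 and -1.28, and the WT points lie nearest 0 for each of them, while Ccnd1 at the left is positive in all 5 without a square.

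Set side by side with Cre only, the order of the group means for Cdkn2a was EV, DMT, MT194, MT486 and WT from the lowest to the highest, at 18.01 ± 2.37, 22.2 ± 3.23, 25.4 ± 1.49, 39.2 ± 12.2 and 57.5 ± 4.54 CPM (mean ± SD, n = 2). The libraries of the other 4 constructs all lay below those of WT, and DMT and MT194 overlapped. For Cdkn2b the order was DMT, EV, MT194, MT486 and WT, with means of 9.13, 10.4, 11.3, 15.5 and 25.9 CPM over the library values above, and DMT and EV overlapped. For Cdkn2c it was EV, DMT, MT194, MT486 and WT, from 59.6 ± 19.95 to 135.1 ± 13.2 CPM, and each of the first 4 overlapped the next.

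These differences were tested against EV-Cre and against WT-Cre, 2 families of comparisons that each share their reference libraries. WT exceeded EV by 1.67 for Cdkn2a (SE 0.26, adjusted p = 0.00308, edgeR) and by 1.31 for Cdkn2b (SE 0.31, adjusted p = 0.0224) on the log2 scale, which made 2 of 10 members called beside 7.37% of all genes in either direction and 3.89% called higher. The call of Cdkn2a held with each library left out, and that of Cdkn2b was lost with any of the 4 left out (adjusted p from 0.0606 to 0.180). With the block 4 were called, beside 23.0% of all genes: these 2, Cdkn2c at 1.22 (SE 0.12, adjusted p = 1.51e-06) and Cdk4 at 0.63 (SE 0.11, adjusted p = 0.000197).

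Against EV-Cre, edgeR called 0 members in MT194, MT486 and DMT, beside 0.225%, 0.362% and 0.00724% of all genes. At an unadjusted p below 0.05 were 1, 2 and 0 members, beside 1326, 1676 and 447 of the 13805 genes. DESeq2 called 0, 1 and 0, beside 1.06%, 2.05% and 0.0257% of all genes. Its 1 call was Cdkn2a in MT486 (1.12, adjusted p = 0.00544). In edgeR Cdkn2a was 0.49 (SE 0.26), 1.12 (SE 0.26, adjusted p = 0.0832) and 0.30 (SE 0.26) above EV in the 3. With the block MT486 had 3 members called higher, Cdkn2a, Cdkn2b and Cdkn2c, at 1.10, 0.57 and 0.81 (adjusted p = 7.73e-05, 0.0146 and 0.000441), beside 8.95% of all genes. MT194 then had 1, Ccnd1 at 0.62 (adjusted p = 0.00173), beside 6.22%, and DMT had 0, beside 0.348%.

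Against WT-Cre, Cdkn2a was lower in MT194 by 1.18 (log2 fold change -1.18, SE 0.26, adjusted p = 0.0449) and in DMT (-1.37, SE 0.26, adjusted p = 0.0149), and Cdkn2b was lower in DMT (-1.50, SE 0.31, adjusted p = 0.0208). Cdkn2b in MT194 stood at -1.20 (SE 0.31, adjusted p = 0.0815) and was called by DESeq2 (-1.18, adjusted p = 0.0129). In edgeR MT194 thus had 1 member called and DMT 2, beside 1.38% and 2.94% of all genes in either direction and 0.826% and 1.42% called lower. None of these 3 calls held when a library of either group was left out, with adjusted p of up to 0.306, 0.154 and 0.198. MT486 had 0 called in edgeR beside 0.109% of all genes, and 0 by DESeq2, beside 0.757%. At an unadjusted p below 0.05 in edgeR were 2 members, beside 975 of the 13805 genes. With the block, Cdkn2a and Cdkn2b were called lower in all 3 mutants, for MT486 at -0.58 (SE 0.12, adjusted p = 0.00808) and -0.73 (SE 0.14, adjusted p = 0.00357), and Cdkn2c in MT194 and DMT. The counts were then 4, 2 and 3 for MT194, MT486 and DMT, beside 10.9%, 5.24% and 14.2%, and the fourth in MT194 was Ccnd1, higher at 0.70 (SE 0.11, adjusted p = 0.000308).

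Whether the effect of Cre itself differed between a construct and EV was tested as an interaction, for each of the 10 genes in 4 constructs. In edgeR 0 of the 10 were called in WT, MT194, MT486 or DMT, beside 0.681%, 0.00724%, 0.00724% and 0.00724% of all genes. At an unadjusted p below 0.05 were 3, 0, 1 and 0 members, beside 1622, 444, 715 and 159 of the 13805 genes. Cdkn2a in WT came closest, with a difference of 1.47 (SE 0.36, adjusted p = 0.106), and passed by DESeq2 (1.47, SE 0.40, adjusted p = 0.0130). With the block 6 differences passed. In WT these were Cdk4 at 0.55 (SE 0.15, adjusted p = 0.0168), Cdkn2a at 1.47 (SE 0.18, 5.31e-05), Cdkn2b at 1.22 (SE 0.19, 0.000507) and Cdkn2c at 1.09 (SE 0.17, 0.00044), beside 13.4% of all genes. In MT486 these were Cdkn2a at 1.01 (SE 0.18, adjusted p = 0.00687) and Cdkn2c at 0.88 (SE 0.17, adjusted p = 0.011), beside 2.68%. For MT194 and DMT no member's difference passed in any of the 3 fits, beside 0.978% and 0.00724% of all genes with the block. The 95% interval in edgeR without the block ran from -0.38 to 1.04 for Cdkn2a and from -0.70 to 0.99 for Cdkn2b in MT194, and from -0.59 to 0.84 and from -0.83 to 0.87 in DMT.

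With Ad-GFP, 0 members were called against EV-GFP in WT, MT194, MT486 or DMT, beside 0.0%, 0.0%, 0.00724% and 0.0% of all genes in edgeR. At an unadjusted p below 0.05 were 0, beside 84, 276, 252 and 175 of the 13805 genes. DESeq2 called 0, beside 0.00515%, 0.0206%, 0.0515% and 0.0154% of all genes. With the block 0 were called as well, beside 0.0%, 0.116%, 0.159% and 0.058% of all genes. At an unadjusted p below 0.05 were 1052 of the 13805 genes in MT194 and, over all constructs, 2 members, both higher in MT194. These were Ccnd1 at 0.33 (SE 0.11) and Ccne1 at 0.35 (SE 0.13), with adjusted p of 0.394 and 0.506. The 10 libraries with Ad-GFP ran from 46.5 to 77.6 CPM for Cdkn2a, from 27.1 to 47.5 CPM for Cdkn2b and from 105.7 to 167.7 CPM for Cdkn2c.

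The neighbourhood of the pair was also read, because Cdkn2a and Cdkn2b can be lost together in immortalized fibroblasts. Both were present in all 35 libraries, with at least 347 reads of Cdkn2a and 201 of Cdkn2b. Of the 22 other listed genes within 500 kb of Cdkn2a, 21 had 10 reads or fewer in every library, and the remaining one, Mtap, which encodes an enzyme of methionine salvage, had 1155 to 9956. The 2 genes of the pair did not change in a fixed ratio. Reads of Cdkn2b per read of Cdkn2a were 0.457 to 0.702 in the 10 libraries with Ad-GFP and 0.353 to 0.599 in the 10 with Ad-Cre-GFP, and within each replicate of each construct the ratio was lower with Cre. In EV the ratio was 0.558 and 0.599 with Cre against 0.702 and 0.614 without. The difference in EV was small in replicate 2, and the ratio was not tested.

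**Figure D4:**
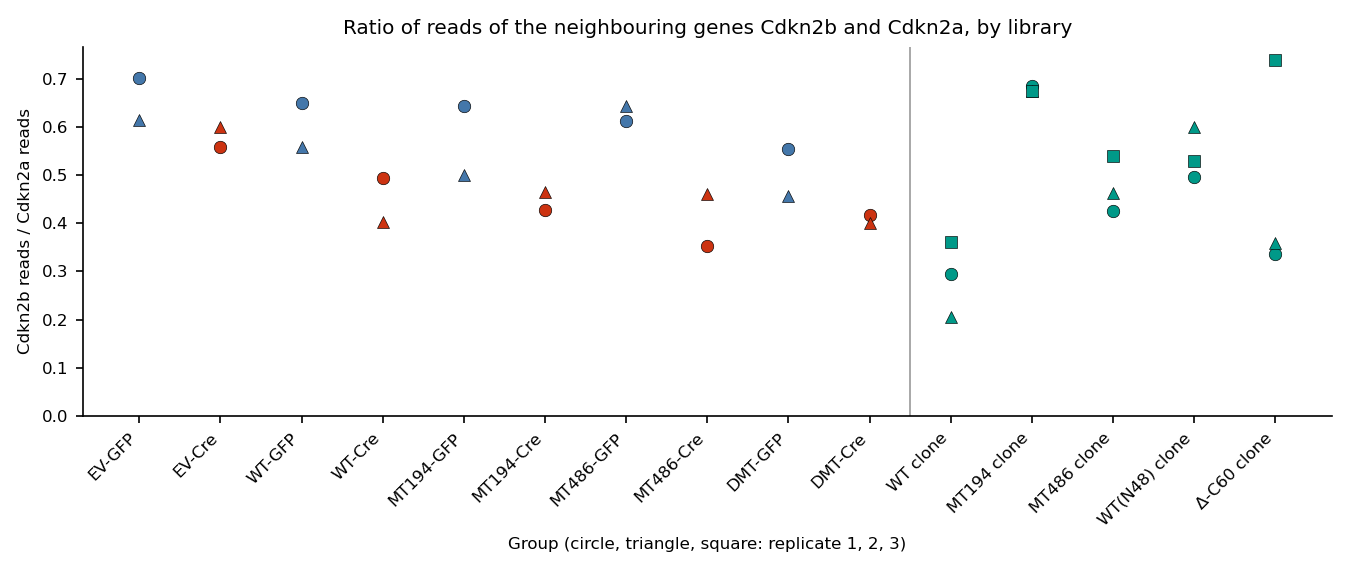
Reads of Cdkn2b divided by reads of Cdkn2a in each library, by group, with populations with Ad-GFP in blue, populations with Ad-Cre-GFP in red and clones in green, and circles, triangles and squares for replicates 1, 2 and 3. The ratio is 0.205 to 0.361 in the WT clones and 0.674 to 0.685 in the MT194 clones, where the populations span 0.353 to 0.702.

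Cdkn1b, which encodes the CDK inhibitor p27Kip1, had smaller log2 fold changes with Cre than Cdkn2a, Cdkn2b and Cdkn2c in each construct, a difference that was not tested. It measured 103.9 and 84.6 CPM in EV-Cre and 134 and 126.7 CPM in EV-GFP, without overlap. The log2 fold change of -0.47 (SE 0.14, adjusted p = 0.0444 in edgeR and 0.000304 with the block) met the threshold on p and missed that on size. In WT it was 118.2 and 122.2 CPM with Cre and 127.8 and 123.8 CPM without, a log2 fold change of -0.07 (SE 0.14). MT194, MT486 and DMT gave -0.16, -0.11 and -0.36 (SE 0.14 each), and only DMT met the threshold on p with the block (adjusted p = 0.00261).

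Ccnd1, the D-type cyclin most closely tied to growth factor signals, was higher with Cre in every pair of libraries. The values with Cre and without were 130.4 and 92 CPM against 80.4 and 65.4 CPM in EV, 113.4 and 94.7 CPM against 80 and 56.4 CPM in WT, and 210.8 and 132.5 CPM against 99.5 and 83.9 CPM in MT194. They were 137.6 and 89.8 CPM against 64.4 and 60.4 CPM in MT486 and 146 and 112.8 CPM against 83.2 and 61.8 CPM in DMT. In none of the 5 constructs did the groups overlap, and the 10 within-replicate ratios lay between 1.41 and 2.14. The log2 fold changes of 0.61, 0.61, 0.90, 0.86 and 0.84 (SE 0.29 each) were not called in edgeR, with adjusted p of 0.195, 0.816, 0.102, 0.15 and 0.0822. With the block all 5 passed (SE 0.11 each), with adjusted p of 0.00036, 0.00474, 2.01e-05, 5.95e-05 and 1.45e-05. By DESeq2, without a block, Ccnd1 was called higher in MT194 (0.92, adjusted p = 0.0341) and DMT (0.83, adjusted p = 0.0414). Its interaction was not called, with a difference of WT from EV of 0.00 (95% interval -0.78 to 0.79).

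Ccnd2 and Ccnd3, the other D-type cyclins, were not called without the block. Ccnd2 was lower with Cre in 10 of 10 within-replicate ratios and ran from 132.7 to 217.6 CPM with Cre and from 165.5 to 240.3 CPM without. Its log2 fold changes were -0.28 in EV, -0.11 in WT, -0.53 in MT194, -0.24 in MT486 and -0.28 in DMT (SE 0.22 each), of which MT194 passed with the block (-0.52, SE 0.10, adjusted p = 0.000707). Ccnd3 was higher in 10 of 10 ratios, at 58.6 to 83 CPM with Cre and 49.4 to 76.9 CPM without, but the groups overlapped in all 5 constructs. None of its log2 fold changes, from 0.08 to 0.25 (SE 0.28 each), was called, with or without the block. The one in EV (0.18) turned to -0.0725 without EV-Cre replicate 1 and to -0.0657 with EV-GFP replicate 2 omitted. These fits were unpaired, and replicate 1 exceeded replicate 2 for Ccnd3 in 10 of 10 groups, so such an omission also unbalances the replicates. Within each replicate of EV, Ccnd3 with Cre was 1.105 and 1.163 times its Ad-GFP level. The annotated span of Ccnd3 overlaps that of Bysl, on the opposite strand, and the span of Ccnd2 that of the antisense gene 9330179D12Rik. Whether their exons overlap was not examined, and the strand setting of the counting was not given in the sources used here.

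Cdk4, a kinase partner of the D-type cyclins, had its lowest mean in EV-Cre. It measured 339.4 and 259.1 CPM there against 457.1 and 393.9 CPM in EV-GFP, without overlap. The log2 fold change of -0.51 (SE 0.27, adjusted p = 0.254) was not called in edgeR and passed with the block (-0.52, SE 0.11, adjusted p = 0.000745). In WT the values were 485 and 430.1 CPM with Cre and 479.5 and 414.5 CPM without, a log2 fold change of 0.03 (SE 0.27), and MT194, MT486 and DMT gave -0.23, 0.00 and -0.17. Cdk4 overlaps Tspan31 on the other strand. Cdk6, the second kinase, was present at 6.76 to 13 CPM in the populations and higher with Cre in 9 of 10 ratios. Its log2 fold changes were 0.45 in EV, 0.48 in WT, 0.08 in MT194, 0.35 in MT486 and 0.37 in DMT (SE 0.21 each), and none was called with or without the block.

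Ccne1, which activates CDK2 late in G1, was higher with Cre in 9 of 10 ratios. It measured 31.4 and 26.1 CPM in MT486-Cre against 18.5 and 19.7 CPM in MT486-GFP, and 29.2 and 23 CPM in DMT-Cre against 17.8 and 17.4 CPM in DMT-GFP. Neither construct showed an overlap. The log2 fold changes of 0.59 (SE 0.18, adjusted p = 0.107) and 0.57 (SE 0.18, adjusted p = 0.0591) were not called in edgeR and passed with the block (adjusted p = 0.00411 and 0.0027) and by DESeq2 (adjusted p = 0.0363 and 0.0255). EV, WT and MT194 gave 0.31, 0.44 and 0.21 (SE 0.18 each), and MT194 was the construct in which the groups overlapped.

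Other genes of the G1 network were read from a list of 28 (cyclins, CDK2 and the CDK-activating kinase, further inhibitors, Cdc25a, ubiquitin ligase parts, retinoblastoma family, E2F and DP factors). In EV, 2 were called higher and 2 lower, or 4 of 28 beside 11.8% of all genes, with a median log2 fold change of 0.05 over the list beside 0.00036 over all genes. With the block 2 were called higher and 6 lower, beside 25.4% of all genes. Cdkn1a, which encodes p21 and is a main target of p53, rose from 15.3 and 12.1 CPM in EV-GFP to 78.8 and 50.7 CPM in EV-Cre (log2 fold change 2.24, SE 0.31, adjusted p = 0.000578). E2f6, a repressive E2F, rose from 4.38 and 3.12 to 9.73 and 7.25 CPM (1.18, SE 0.24, adjusted p = 0.00593). Cdkn1c, which encodes p57, fell from 9.64 and 7.02 to 2.84 and 1.6 CPM (-1.90, SE 0.28, adjusted p = 0.000914), and E2f2, an activating E2F, from 22.1 and 29.5 to 15.2 and 12.7 CPM (-0.89, SE 0.24, adjusted p = 0.0253). Both counts are close to the share of all genes and are no result about the list. Among the inhibitor genes in EV, Cdkn1a rose while Cdkn1c and the 3 INK4 genes named above fell, and the fourth INK4 gene, Cdkn2d, had a log2 fold change of -0.49 and was not called.

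In WT 0 of the 28 were called in edgeR, beside 0.0217% of all genes. At an unadjusted p below 0.05 were 3 of the 28, beside 859 of the 13805 genes. DESeq2 called 0 as well, beside 0.309%. Cdkn1a stood there at 24.3 and 21.7 CPM with Cre against 12 and 13.4 CPM without (log2 fold change 0.85). In edgeR only Cdkn1c was called in MT194 (-1.07, SE 0.27, adjusted p = 0.0416), 0 in MT486 and 3 in DMT. Over all genes 4.22%, 2.42% and 9.92% were called in these comparisons, and the counts for MT194 and DMT lie near that share. In MT486 8 of the 28 were at an unadjusted p below 0.05, beside 2002 of the 13805 genes. There DESeq2 called 3, beside 3.45% of all genes, and the fit with the block 4, beside 12.1%. The 3 in DMT were Cdkn1a at 1.75 (SE 0.31, adjusted p = 0.00316), Cdkn1c at -0.98 (SE 0.27, adjusted p = 0.0353) and Ccne2, a second cyclin E gene named here after its value was seen, at 1.01 (SE 0.27, adjusted p = 0.0275). With the block DMT had 4 called higher and 3 lower, beside 23.1% of all genes. Between WT-Cre and EV-Cre 3 were called, Cdkn1a lower (-1.49) and Cdkn1c and E2f2 higher (1.56 and 0.89) in WT, beside 7.37% of all genes. There DESeq2 called 6 higher and 1 lower, beside 7.6%, and the fit with the block 7 higher and 2 lower, beside 23.0%.

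To place the pattern, the genes whose mean log2 CPM ran most closely with the members of widest range were read over the 10 population groups, among the 9440 genes whose mean over the libraries reached 10 CPM. For Cdkn2b, with a range of 2.08 on the log2 scale, these were Abcb8, a mitochondrial ABC transporter (Pearson's r = 0.996), Casp9, an initiator caspase (0.995), and Kdm4a, a histone demethylase (0.995). For Cdkn2a, with a range of 1.85, they were Ddah2 (0.995), Wbp2 (0.994) and Ndufa2, a subunit of respiratory complex I (0.992). All 10 points come from the same 20 libraries, and these r describe the groups only. Among the members, Cdkn2a ran with Cdkn2b at 0.961 and with Cdkn2c at 0.976, and against Ccnd1 at -0.772.

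In the clones, lines of 1 construct differed widely. Cdkn2b was the only member called, higher in MT194 than in WT clones. It measured 61.8, 66.2 and 146.7 CPM in the MT194 clones and 20.7, 15.3 and 21.5 CPM in the libraries labelled WT clone, without overlap. The log2 fold change was 2.26 (SE 0.54, adjusted p = 0.048, edgeR), which made 1 of 10 members called beside 2.9% of all 13223 genes tested in either direction and 1.28% called higher. The call was lost with each of the 6 clones left out (adjusted p = 0.0708 to 0.154), without a filter on low counts (0.0688), and without the 2 WT clones low in Nelfb, where the log2 fold change was 2.56 (SE 0.92, adjusted p = 0.34). Against the WT(N48) clones it was 0.73 (adjusted p = 0.395). Cdkn2a measured 90.1, 98.2 and 217.5 CPM in MT194 clones and 70.2, 74.8 and 59.5 CPM in WT clones, also without overlap, and was not called (0.99, SE 0.54, adjusted p = 0.312). Without the 2 WT clones low in Nelfb, where WT clone 2 alone was left, the log2 fold change of Cdkn2a was 0.84 (SE 0.86). In direction these values stand opposite to the MT194 populations, in which both genes were below WT with Cre, and the 2 designs differ in time, selection and the WT libraries, so that no test joins them.

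In MT486 against WT clones 0 members were called in edgeR beside 0.0% of all genes. At an unadjusted p below 0.05 was 1 member, beside 1176 of the 13223 genes. DESeq2 called 0 beside 0.852%, and leaving out either MT486 clone 1 or MT486 clone 2, the pair most alike, called none. Cdk4 was at 723.1, 734.1 and 461.5 CPM in these clones and 458.9, 401.5 and 464.3 CPM in WT (log2 fold change 0.53, SE 0.18, adjusted p = 0.354, and 0.68, SE 0.30, adjusted p = 0.892 without the 2 WT clones low in Nelfb). In Δ-C60 against WT(N48) clones 0 were called in edgeR beside 0.0% of all genes. At an unadjusted p below 0.05 were 0 members, beside 1540 of the 13223 genes. DESeq2 called 0 members there, beside 1.21% of all genes. The 95% intervals of the difference there were wide, from -0.88 to 1.2 for Cdkn2a and from -2.40 to 1.13 for Ccnd2. Between WT(N48) and WT clones, which hold no Δ-C60 library, the interval of Ccnd2 was similarly wide, from -1.83 to 1.68. In the library Δ-C60 clone 2 Ccnd2 was at 2.4 CPM, against 192.8 and 251.9 CPM in the other Δ-C60 clones and 62.5 to 354.5 CPM in the remaining 12. The same line had the lowest Cdkn1b (27 CPM against 58.9 to 145.3 CPM in the 14 others) and Cdkn2c (47.1 CPM), and Ccnd1 at 915.2 CPM.

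WT(N48) and WT clones, which differ in vector, had 0 members called in edgeR beside 2.1% of all genes. At an unadjusted p below 0.05 were 3 members, beside 2775 of the 13223 genes. DESeq2 called 3 members, 2 higher and 1 lower in WT(N48), beside 6.01% of all genes. Cdkn2c measured 64.9, 72.8 and 118.2 CPM in WT(N48) and 179.1, 183.5 and 207.8 CPM in WT clones, without overlap (-1.16, SE 0.33, adjusted p = 0.0775 in edgeR and 0.0154 by DESeq2). Cdkn2b was at 27.1, 84.3 and 54.6 CPM in WT(N48), above all WT clones (1.53, SE 0.53, adjusted p = 0.127), and Cdk4 at 614.1, 651.9 and 723.3 CPM, likewise (0.59, SE 0.18, adjusted p = 0.0985). Without the 2 WT clones low in Nelfb these 3 log2 fold changes were -1.12, 1.83 and 0.71, with adjusted p of 0.589, 0.635 and 0.59.

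Of the list of 28, 3 genes named after their values were seen, Ccna2, Skp2 and E2f8, were called lower in MT194 than in WT clones (-0.71, -0.78 and -0.99), beside 2.9% of all genes in either direction. In WT(N48) 1 was called lower than in WT clones, Fbxo31 (-0.82), beside 2.1%, and it too was named after its value was seen. DESeq2 called 5 and 2 of the 28 lower and 0 higher in these comparisons, beside 5.98% and 6.01% of all genes. With the block 0 were called in either comparison, beside 0.393% and 0.771% of all genes. At an unadjusted p below 0.05 were 9 and 4 of the 28, beside 2611 and 2579 of the 13223 genes. Without the 2 WT clones low in Nelfb, where WT clone 2 alone was left, the 4 genes stood at -0.95, -0.88, -1.27 and -0.81.

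**Figure D5:**
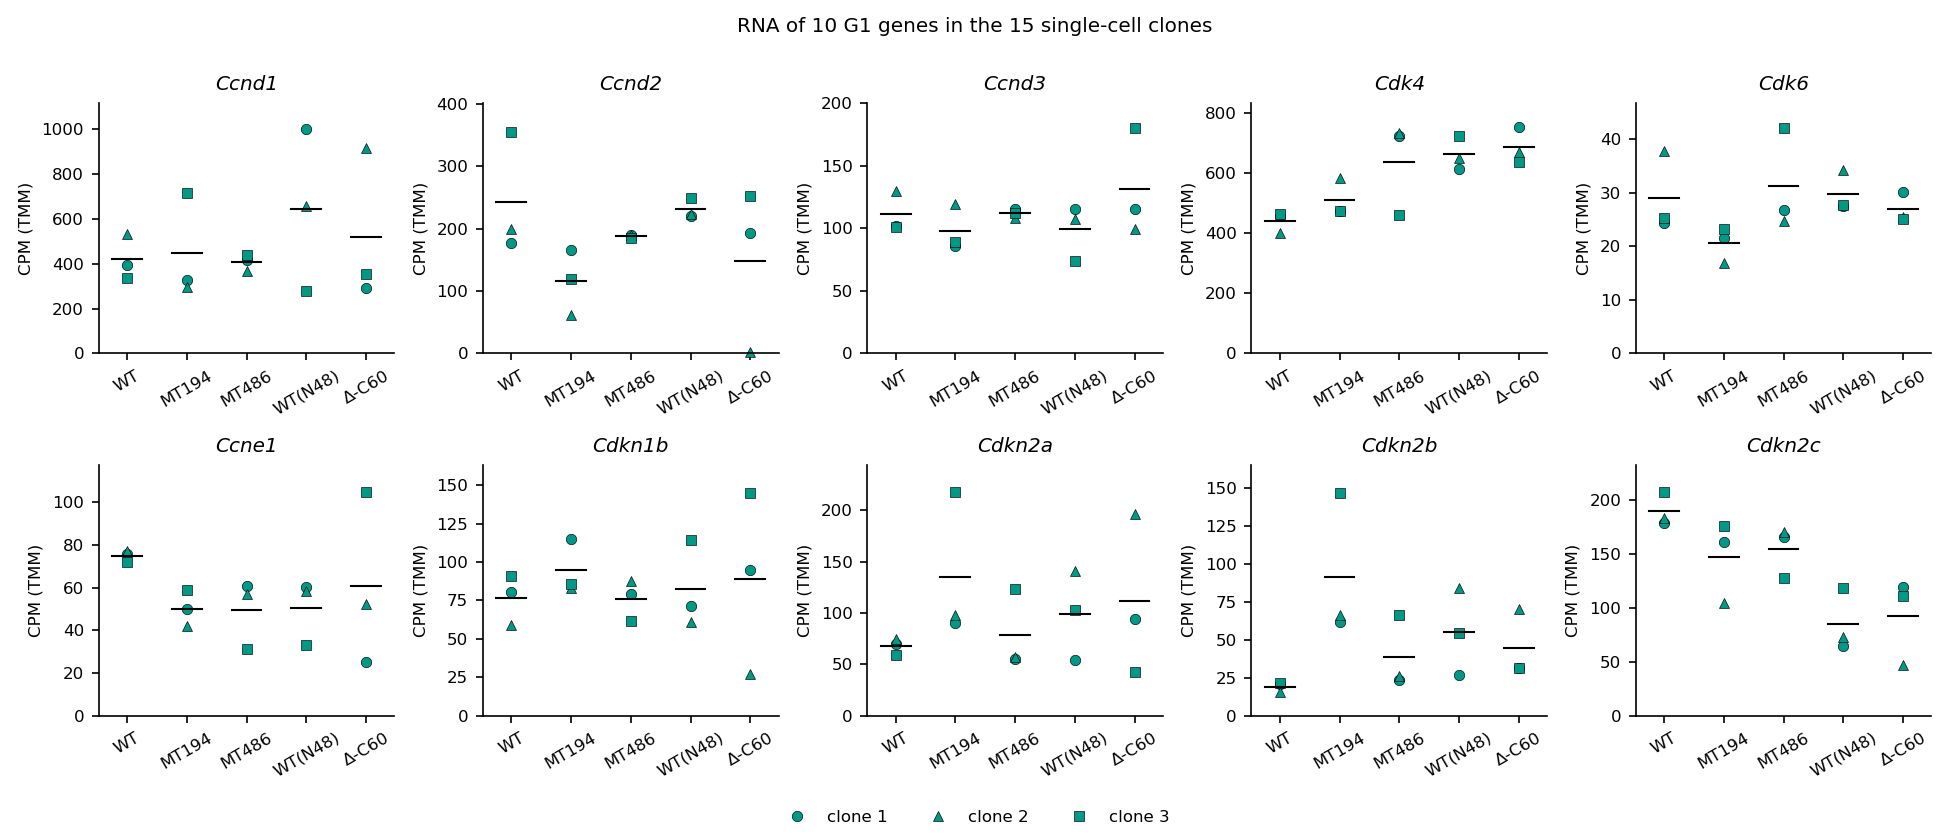
CPM of each gene in the 15 clones by construct, with circles, triangles and squares for clones 1, 2 and 3 and a line at the group mean (n = 3). Cdkn2b is higher in the 3 MT194 clones than in the 3 WT clones, Ccnd2 is near 0 in Δ-C60 clone 2, and Ccnd1 spans 276 to 997.2 CPM.

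Beside the populations, the clones held more Ccnd1 (276 to 997.2 CPM against 56.4 to 210.8 CPM), more Cdk6 (17 to 42.1 CPM against 6.76 to 13 CPM) and, in most lines, more Ccne1 (24.9 to 104.9 CPM against 17.4 to 34.8 CPM). The ranges of Ccnd1 and Cdk6 did not meet. The 2 sets were scaled apart and are not joined by a test, so that these values stand side by side only.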

How the data were processed

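RNA-seq counts from 35 libraries were used, 20 populations and 15 clones. The authors aligned reads to mm10 with Bowtie2, skipped alignments with a mapping quality below 30 and counted reads per gene with HTSeq, and the deposited values are these raw counts, not normalized. The library kit was stranded, and whether the counting used strand was not given in the sources used here. Library sizes leave out reads on no gene, 11.7% to 21.3% of a population library and 9.14% to 12.0% of a clone library, and reads that were ambiguous between genes, at most 1.13%.

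Populations and clones were fitted apart with edgeR 4.0.16 in R 4.3.3 (TMM, filterByExpr, 1 mean per group, robust quasi-likelihood test, Benjamini-Hochberg over all genes tested, 13805 and 13223 genes). Calls needed an adjusted p under 0.05 together with a log2 fold change beyond 0.5 in size. The standard error is the log2 fold change divided by the square root of F, and 95% intervals are normal. Alternatives were DESeq2 1.42.0, DESeq2's size factors, no filter, no threshold on size, the replicate number as a block, each library left out, the EV libraries alone and, for clones, other comparators. The functions were tested on simulated data.

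Population replicates are independent experiments by the study's account, and same-numbered libraries deviated together (45 of 45 pairs of groups with a correlation over 0.1, from 0.42 to 0.73), so that the block pairs them. Where nothing says that libraries come from separate cultures, p-values measure only the spread between libraries. The 10 members, the list of 28 and the markers were chosen with earlier results of these data known. Other genes were named if called in EV (at most 8 by size) or in at least 2 of the other constructs, and for the 2 members of widest range the 3 genes most correlated with each, over group means of log2(CPM + 0.5). Positions are from GENCODE M21 on GRCm38, and promoter windows of 250 bases from RefSeq (GRCm38.p6), where 8 of 10 members matched. Chromatin data were not analysed here.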

Additional observations from a re-analysis of the deposited data

Results flagged for a closer look

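With the replicate number as a block, the test of the difference between a construct's response to Cre and that of EV passed for 6 results, none of which passed in edgeR without the block. In WT the log2 differences were 0.55 for Cdk4, 1.47 for Cdkn2a, 1.22 for Cdkn2b and 1.09 for Cdkn2c. In MT486 they were 1.01 for Cdkn2a and 0.88 for Cdkn2c. DESeq2 without a block passed 1 of these, Cdkn2a in WT. All 6 share the 4 EV libraries, and all 6 are positive, so that the decrease with Cre was smaller than in EV or, for Cdk4 in WT, absent in value.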

How the results depend on the processing

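Over the populations, the replicate block moved the counts most, from 3 to 5 members called in EV, from 5 to 16 in the 4 other constructs, from 2 to 8 against EV-Cre, from 3 to 9 against WT-Cre and from 0 to 6 for the interactions, and it left 0 between constructs with Ad-GFP. DESeq2 gave 9 in the 4 other constructs, 4 against EV-Cre, 4 against WT-Cre and 1 interaction. Over all genes it called 0.309%, 4.62%, 3.45% and 8.89% in WT, MT194, MT486 and DMT. Against EV-Cre these shares were 7.6%, 1.06%, 2.05% and 0.0257%, and for the interactions 2.1%, 0.0875%, 0.221% and 0.00515%. Against WT-Cre they were 2.26%, 0.757% and 3.64% in MT194, MT486 and DMT. With a library left out, the counts ran from 3 to 5 in the 4 other constructs, from 1 to 2 against EV-Cre and from 0 to 3 against WT-Cre. Of 14 results called, 5 stayed called when any single library of their comparison was omitted: Cdkn2a and Cdkn2b in EV and in DMT, and Cdkn2a in WT against EV. The log2 fold change of Ccnd3 in EV was 0.18 and, with 1 of its libraries omitted, ran from -0.0725 to 0.459, the lowest without EV-Cre replicate 1 (EV-GFP replicate 2 gave -0.0657), none of them called.

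In the clones the count of 1 became 0 without a filter, with the block or without both WT clones low in Nelfb, 4 by DESeq2, and ran from 0 to 2 with a clone left out. DESeq2 called 5.98% of all genes in MT194, 0.852% in MT486 and 6.01% in WT(N48), each against WT clones, and 1.21% in Δ-C60 against WT(N48). Clone numbers do not pair lines: 3 of 30 pairs of groups correlated over 0.1, with a median of -0.0146. With 2 libraries in a group, leaving 1 out assumes that the other varies like the rest. For the populations these fits were unpaired, so that an omission also unbalanced the replicate numbers, as for Ccnd3 in EV. The cause of these differences was not tested.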
